A study of Mus musculus with 2 samples.

Results

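In newborn mouse hindbrain, 21673 weak CTCF peaks lay at the promoters of protein-coding genes and were not part of the reproducible peak sets. They were taken from a pooled list of 251251 peaks, of which they made up 8.63%. The peaks were chosen by a measured property, their absence from the IDR sets, and by position. A weak promoter peak was a pooled peak on chromosomes 1 to 19 that overlapped no peak of the optimal or conservative IDR set by 1 bp or more. Its summit also had to lie within 1 kb of a start site of a protein-coding gene. IDR, the irreproducible discovery rate, is a procedure that keeps peaks whose ranks agree between replicates. Of 34356 pooled peaks at coding promoters on these chromosomes, 63.1% were of this weak kind (95% Wilson interval 62.6 to 63.6), and the remaining 12683 overlapped an IDR peak.

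The series is a chromatin immunoprecipitation experiment with sequencing (ChIP-seq) against CTCF, in 1 group of 2 libraries. The tissue was hindbrain of the strain B6NCrl at postnatal day 0. Hindbrains from several dissections had been pooled and pulverised, and no sex was recorded. Both libraries carry the same biosample label, and their differences may therefore be technical. The group has no untreated or mutant counterpart. The lists hold peaks of bulk tissue, in which a weak signal in all cells and a stronger one in fewer cells cannot be told apart.

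CTCF is a zinc finger protein that binds a long, GC-rich DNA motif and halts cohesin as it extrudes chromatin loops. At promoters it is known to bring start sites into contact with distant enhancers or to shield them from neighbouring genes. Active promoters are also open chromatin, often rich in CpG dinucleotides, where DNA can be recovered in a ChIP experiment without the motif of the targeted protein. No input or control track was used here, so recovery of open DNA at these promoters was not tested.

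The sequences around weak promoter peaks came with and without a CTCF core match. The core match is a site within 2 mismatches of the 14 bp CTCF core consensus, on either strand, lying wholly within 50 bp of the summit. The first set shows 5 of the 6 strongest weak peaks that were in both library lists and held a match with at most 1 mismatch. Capitals mark the match, all are printed on the plus strand of the RefSeq GRCm38 assembly (mm10), and the matches of Fam155a and Pianp lie on the plus strand and the others on the minus strand. The window of Pianp touches an annotated untranslated region and was shortened to 30 bp.
Zfp952, chr17:32992105-32992205: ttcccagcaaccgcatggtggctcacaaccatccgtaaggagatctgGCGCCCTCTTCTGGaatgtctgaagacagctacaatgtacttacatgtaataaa
Fam155a, chr8:9772062-9772162: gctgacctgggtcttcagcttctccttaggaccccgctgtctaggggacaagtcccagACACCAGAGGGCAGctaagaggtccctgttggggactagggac
Pianp, chr6:124998981-124999010: agtttggcCCAGCAGAGGGAGCttgcttgg
Arhgef4, chr1:34751462-34751562: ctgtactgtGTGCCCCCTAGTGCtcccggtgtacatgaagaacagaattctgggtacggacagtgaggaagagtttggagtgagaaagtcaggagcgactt
Prss32, chr17:23843309-23843409: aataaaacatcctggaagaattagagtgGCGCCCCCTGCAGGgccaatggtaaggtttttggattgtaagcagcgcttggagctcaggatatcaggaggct

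The second set shows 3 of the 8 strongest weak promoter peaks, chosen because they held no such match and touched no untranslated region. Capitals mark CpG dinucleotides, of which the windows of Ppp2r3d, Gpc1 and Lrrn1 held 6, 9 and 4, each reaching 50 bp to either side of the summit. The windows of Zfp952, Fam155a, Arhgef4 and Prss32 above, of the same length, held 3, 1, 3 and 2.
Ppp2r3d, chr9:124423077-124423177: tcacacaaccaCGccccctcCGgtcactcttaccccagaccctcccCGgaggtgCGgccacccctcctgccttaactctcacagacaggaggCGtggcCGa
Gpc1, chr1:92832389-92832489: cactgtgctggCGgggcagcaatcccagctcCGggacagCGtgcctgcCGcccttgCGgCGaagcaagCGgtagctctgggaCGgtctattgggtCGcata
Lrrn1, chr6:107530286-107530386: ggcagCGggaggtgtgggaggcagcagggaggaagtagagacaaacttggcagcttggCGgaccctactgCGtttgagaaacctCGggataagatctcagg

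The weak promoter peaks had a median signal value of 10.3, with quartiles of 8.33 and 13.8 and a range from 7.03 to 53.4. The signal value is the score that the authors' peak caller gave each peak, on a scale with no stated unit. The 11335 pooled peaks at coding promoters that overlapped the optimal IDR set, called optimal promoter peaks below, had a median of 56.0 and ran from 7.04 to 646.5. The 83702 pooled peaks that were likewise outside the IDR sets but over 10 kb from any annotated start site, called distal rejected peaks below, had a median of 8.92. These values helped to choose the peaks and are given as a description. The ranges met over a wide stretch: 6777 of the 12683 IDR peaks at coding promoters were weaker than the strongest weak peak. Only the peaks of Iws1 and Tgfb2 exceeded 48.8, the median of those IDR peaks. The deposited q value reached 0.05 or lower for 4451 weak promoter peaks (20.5%), against 95.5% of the optimal promoter peaks.

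The 8 strongest weak promoter peaks were found in both library lists, each of which holds 300000 peaks ranked here from the strongest signal down. Their ranks ran from 30225 to 41103 in replicate 1 and from 42175 to 104590 in replicate 2, so every one of them stood lower in replicate 2. Iws1, whose protein works with the elongation factor Spt6, held the strongest peak, 48 bp upstream of its start, at rank 32343 in replicate 1 and 42175 in replicate 2. Tgfb2, which encodes a transforming growth factor ligand, had a peak 46 bp downstream of its start (signal 52.4) at ranks 30225 and 65167. Hrk, an activator of apoptosis, was at ranks 37766 and 104590 and was the only one of the 8 with a core match. Ptpre (a receptor tyrosine phosphatase), Pmm1 (a phosphomannomutase), Ppp2r3d (a phosphatase 2A subunit), Gpc1 (a cell surface glypican) and Lrrn1 (a leucine-rich repeat protein of neurons) made up the rest.

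Of the weak promoter peaks, 10558 overlapped a peak in both library lists by 1 bp or more, which is 48.7% (95% Wilson interval 48.0 to 49.4). Over all 179270 pooled peaks outside the IDR sets this share was 36.7%, and over the distal rejected peaks it was 33.9%. The difference between weak promoter and distal rejected peaks was 14.9 percentage points (95% Newcombe interval 14.1 to 15.6). With summits of both libraries required within 50 bp, the share of weak promoter peaks was 21.2% and the difference 3.57 points. With a reciprocal overlap of 50% the difference was 9.06 points. Replicate 1 alone held another 6227 (28.7%), replicate 2 alone 3914 (18.1%), and 974 (4.49%) were in neither list. Among optimal promoter peaks, 99.2% were in both. Because the pooled list holds the reads of both libraries, and because the IDR sets used their ranks, these overlaps are a description and not independent support for the peaks. All such intervals cover counting error only, and neighbouring peaks are not independent.

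The library lists were denser at promoters than elsewhere. They covered 12.01% (replicate 1) and 10.8% (replicate 2) of the bases within 1 kb of a coding start, against 3.80% and 3.53% of chromosomes 1 to 19. The weak promoter peaks were also moved by 1 kb to the left or right. Of the 21673, 19380 and 19406 moved intervals were counted, and 9.86% and 9.93% of these met a peak in both lists. After a move of 5 kb the shares were 4.12% of 20865 and 4.21% of 20814. For the 83702 distal rejected peaks a move of 1 kb left 2.86% on either side, of 81010 and 81094 counted. The moved shares thus leave out some peaks, and a larger part of the promoter set after a move of 1 kb. Both the measured share and the share after a move were thus higher at promoters than far from them.

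The excess over distal rejected peaks depended on signal. All pooled peaks outside the IDR sets were split into 10 deciles of signal, with 1 the weakest. Decile 10 ran from 15.9 to 306.3, past the strongest weak promoter peak at 53.4. Decile 1 held 1472 weak promoter peaks, of which 11.8% were in both lists, against 5.99% of the distal ones, a difference of 5.83 points (95% Newcombe interval 4.203 to 7.65). The difference was 6.73 points in decile 5 and 2.56 points (0.298 to 4.83) in decile 7. In decile 10, 90.9% of 3421 weak promoter peaks and 92.0% of the distal peaks were in both lists, a difference of -1.09 points (-2.26 to 0.0338). In deciles 8 to 10 the interval of the difference included 0. Weak promoter peaks were more frequent in the upper deciles, with 15.8% of them in decile 10 and 6.79% in decile 1.

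**Figure D1:**
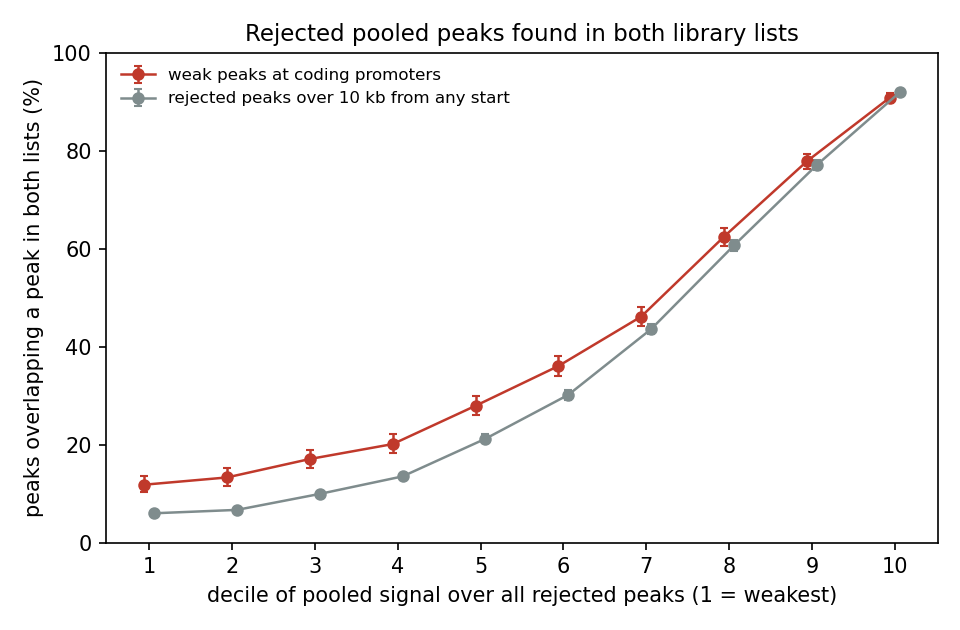
Share of peaks that overlapped a peak in both library lists (y axis, percent) by decile of pooled signal over all pooled peaks outside the IDR sets (x axis, 1 the weakest), with 95% Wilson intervals, for weak peaks at coding promoters and rejected peaks over 10 kb from any start. Weak promoter peaks lay above distal ones at 11.8% against 5.99% in decile 1, and the curves met in decile 10, at 90.9% and 92.0%.

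Drawing the peaks from a single library gave similar shares. Of 23373 promoter peaks in the list of replicate 1 that met the same rule, 47.0% overlapped a peak of replicate 2, against 26.8% of its distal rejected peaks, a difference of 20.1 points (95% Newcombe interval 19.5 to 20.8). Of 22327 drawn from replicate 2, 48.7% overlapped a peak of replicate 1, against 26.0% of its distal peaks, a difference of 22.7 points (22.0 to 23.4). These draws do not use the pooled list, but they still leave out peaks that overlap the IDR sets.

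The order of the weak promoter peaks was little shared between the libraries. For the 10558 in both lists, the median rank was 111366 in replicate 1 (30225 to 299966) and 113732 in replicate 2 (33740 to 299855). The rank correlation across them was 0.149 (Spearman's coefficient over 10558 peaks), against 0.252 for 28339 distal rejected peaks and 0.904 for 11244 optimal promoter peaks. These are descriptions across peaks that share 2 libraries, and the rule itself leaves out peaks of matching rank. The median gap between a weak promoter peak's ranks was 48452 places, against 4020 for the optimal promoter peaks. Of the 10558 in both lists, 49.9% ranked higher in replicate 1. Of all weak promoter peaks, 77.4% were in the list of replicate 1 and 66.8% in that of replicate 2. Only 32 of them (0.148%) stood within the first 62686 places, the size of the optimal set, of both lists, and 5096 (23.5%) within the first 150000.

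**Figure D2:**
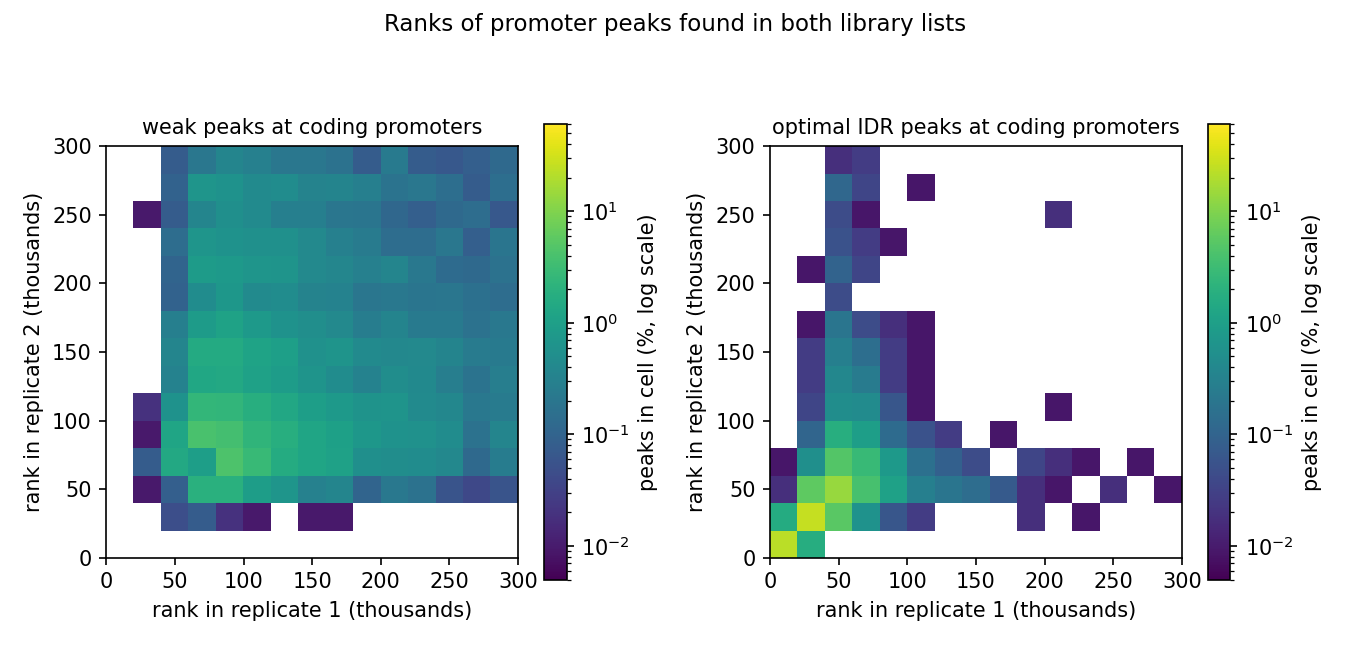
Rank in replicate 2 against rank in replicate 1 (divided by 1000, low values the strongest) for promoter peaks in both lists, as the percent of peaks in each cell on a logarithmic colour scale, for weak promoter peaks (left) and optimal promoter peaks (right). The weak peaks spread over the whole plane beyond the strongest ranks (rank correlation 0.149), while the optimal ones gather at the strongest ranks along the diagonal (rank correlation 0.904).

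A core match at the summit was more frequent than in the flanks of the same peaks, but it was found in a minority. Of the weak promoter peaks, 2255 held a match, which is 10.4% (95% Wilson interval 10.01 to 10.8). Over all pooled peaks outside the IDR sets the share was 15%. Windows of the same length 1 kb to the left and right of the same summits held one in 3.51% and 3.66%. The summit alone held a match in 2179 peaks and the left window alone in 685 (two-sided exact McNemar test, p = 6.57e-180), and the right window gave 2177 against 716 (p = 7.50e-170). The reversed, not complemented, consensus matched 1.86% of the summits. It has the same letters but holds a fixed CpG dinucleotide that the core consensus lacks, so it is no full control for base composition. The base composition of the flank windows was not measured, so the flanks are not matched for it either. Of the matches, 18 were perfect, 299 had 1 mismatch and 1938 had 2. At all 90262 annotated coding start sites on these chromosomes, 4.94% of windows held a match.

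The weak promoter peaks held a match less often than either comparison set. The optimal promoter peaks had one in 41.4%, a difference of -31.0 points (95% Newcombe interval -32.0 to -30.0). The distal rejected peaks had one in 15.03%, a difference of -4.62 points (-5.09 to -4.14), although their median signal was lower. In decile 1 of signal the shares were 5.98% for weak promoter peaks and 6.42% for distal ones, a difference of -0.445 points (-1.66 to 0.970). The interval of the difference included 0 in deciles 1 to 4. In decile 10 they were 18.3% and 40.6%, a difference of -22.3 points (-24.0 to -20.6). Signal was not matched within decile 10, where weak promoter peaks reached 53.4 and distal rejected peaks 255.3. The flanks of the weak promoter peaks stayed between 3.13% and 4.11% in every decile.

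**Figure D3:**
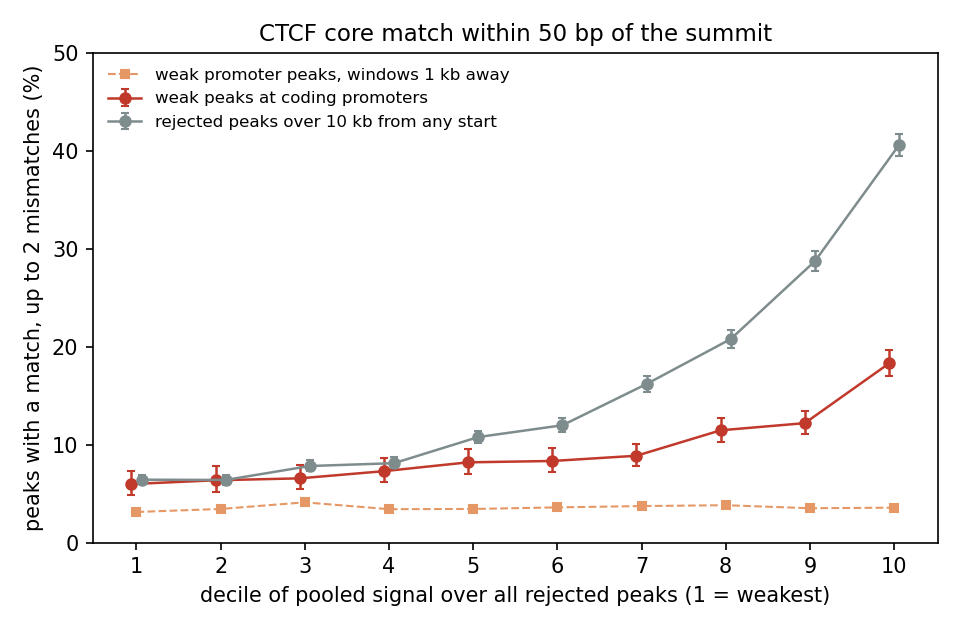
Share of peaks with a CTCF core match within 50 bp of the summit (y axis, percent, up to 2 mismatches) by decile of pooled signal (x axis, 1 the weakest), with 95% Wilson intervals for both peak sets, and the mean of both flank windows of the weak promoter peaks. The distal curve climbs to 40.6% and the weak promoter curve to 18.3%, while the promoter flanks stay near 4%.

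Matches and presence in both libraries went together. Of the weak promoter peaks in both lists 12.6% held a match, of those in 1 list 8.55%, and of those in neither 5.75%. The last group, with 974 peaks, exceeded its left flank of 2.67% (two-sided exact McNemar test, p = 0.00105) but not its right flank of 4.62% (p = 0.300). Weak peaks with a match were in both lists in 59.1% of cases and those without in 47.5%, a difference of 11.6 points (95% Newcombe interval 9.40 to 13.7). Their median signal was 12.1 against 10.2. The centre of the match lay a median of 18.5 bp from the summit, compared with 15.5 bp in distal rejected and 7.50 bp in optimal promoter peaks.

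The 5 matches printed above lay in promoters of genes with varied roles. Pianp, a membrane protein gene of neurons, had a peak 350 bp downstream of a start at ranks 65890 and 46153 in replicates 1 and 2. Arhgef4 encodes a guanine nucleotide exchange factor, and its peak stood at ranks 47822 and 83539. Zfp952 (a zinc finger gene), Fam155a (a subunit of a sodium leak channel) and Prss32 (a serine protease) had peaks at -974, -951 and -496 bp from a start. All 5 ranked between 45854 and 83539 in both libraries.

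The match at Zfp952 holds the stretch GAAGAGGGC when read along the motif, and it lies in letters that the RefSeq genome file masks as repeats. Rodent B2 elements, a family of short interspersed repeats, are known to carry CTCF sites. This stretch was examined after the sequences had been seen. It occurred in 321 of the 2255 matches at weak promoter peaks (14.2%, 95% Wilson interval 12.9 to 15.7), compared with 24.998% at distal rejected and 7.67% at optimal promoter peaks. Of the 321, 314 lay in masked letters (97.8%), against 11.4% of the other matches. Their summits were a median of 601 bp from the nearest coding start, against 347 bp for the other matches. In all, 23.7% of the matches at weak promoter peaks were masked, 40.9% at distal rejected and 12.98% at optimal promoter peaks. The files name no repeat family, so the family of these repeats was not tested.

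By base composition the weak promoter peaks stood between distal rejected and optimal promoter peaks. Over 150 bp on each side of the summit their median GC content was 54.2%, against 46.2% and 57.8%, and 56.8% around all coding start sites. The CpG ratio, the observed over the expected number of CpG dinucleotides, had a median of 0.404, against 0.173 and 0.579. It exceeded 0.6, a common mark of CpG islands, at 31.5% of weak promoter, 1.28% of distal rejected and 47.8% of optimal promoter peaks, and at 43.3% of coding start sites. Within the weak promoter peaks, those over 0.6 were in both library lists in 59.99% of cases and the others in 43.5%, a difference of 16.5 points (95% Newcombe interval 15.04 to 17.9). Their median signals were 11.6 and 9.81. Within deciles of signal the gap was wide in the weakest and narrow in the strongest, with 18.8% against 10.2% in decile 1 and 91.7% against 90.2% in decile 10. The core match ran the other way in decile 10, at 11.8% of peaks over 0.6 and 23.6% of the others.

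Words of other promoter factors were counted as exact letters on either strand within 50 bp of the summit. GGGCGG, the GC box bound by Sp and KLF proteins, was in 10.9% of weak promoter peaks, 1.496% of distal rejected peaks, 15.9% of optimal promoter peaks and 20.5% of coding start sites. CCGGAAG, a site of ETS proteins, followed the same order at 1.75%, 0.384%, 3.11% and 5.32%, and so did GCATGCGC, the NRF1 word, at 0.411%, 0.188%, 0.900% and 1.16%. CCAAT, the box bound by NF-Y, differed less, at 10.6%, 12.8%, 9.49% and 11.2%, and CACGTG, the E-box, stood at 2.09%, 1.58%, 2.47% and 2.52%. TATAAA was found in 2.53%, 4.90%, 1.66% and 3.87%, AAGATGG of YY1 in 2.04%, 2.48%, 2.35% and 3.31%, and ACTACAA of ZFP143 in 0.900%, 0.885%, 0.838% and 0.910%. TGACGTCA, bound by CREB, was in 0.226%, 0.0681%, 0.273% and 0.817%. A word is only a string of letters and no sign that the factor was bound, and GC-rich words move with the GC content given above.

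Weak promoter peaks were spread more widely around the start sites than optimal ones. Of their summits 19.3% lay within 100 bp of a coding start, against 29.9% of optimal promoter peaks, a difference of -10.6 points (95% Newcombe interval -11.6 to -9.61). Upstream summits made up 46.4% of the weak and 55.5% of the optimal peaks. The weak peaks within 100 bp of a start had a median GC content of 60.1% and were in both lists in 55.2% of cases. Those more than 500 bp upstream had 48.5% GC, and 41.3% of them were in both lists. The core match was found in 10.3% of the peaks within 100 bp and in 12.1% of those more than 500 bp upstream. By annotation, 46.9% of the weak summits lay in introns of coding genes, 19.97% in untranslated exons, 11.4% in coding sequence and 21.7% outside coding genes, against 36.8%, 22.7%, 10.01% and 30.5% of the optimal ones.

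**Figure D4:**
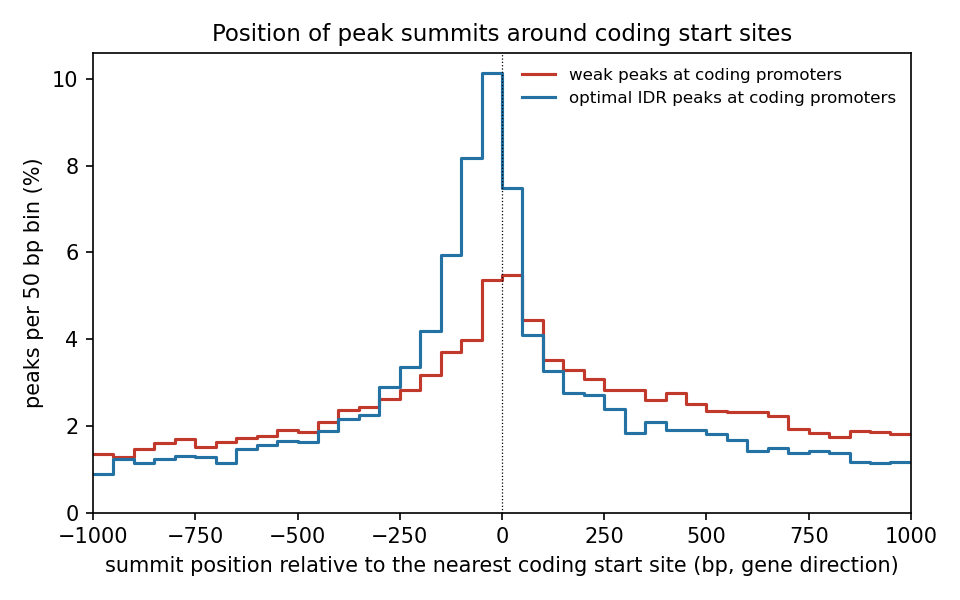
Percent of peaks per 50 bp bin (y axis) by the distance of the summit from the nearest coding start site in gene direction (x axis, bp), for weak promoter peaks and optimal promoter peaks. Both curves peak at the start, with 19.3% of weak and 29.9% of optimal summits within 100 bp. The weak curve is higher from 100 to 1000 bp downstream and, upstream, from -1000 to -300 bp.

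Many weak promoter peaks lay near a reproducible one. An IDR summit was found within 1 kb of 5000 of them (23.1%) and within 10 kb of 74.4%, against 5.58% and 44.2% of the distal rejected peaks. Those with an IDR summit within 1 kb were in both library lists in 51.9% of cases and the others in 47.8%, a difference of 4.14 points (95% Newcombe interval 2.56 to 5.72). Across the 19 chromosomes the number of weak promoter peaks per coding gene ran from 0.822 on chromosome 14 to 1.25 on chromosome 15. The share in both lists ran from 46.2% to 52.8%, and the share with a core match from 7.85% on chromosome 3 to 14.01% on chromosome 15.

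At the level of genes, 11935 of 20807 coding genes had a weak peak within 1 kb of a start site, which is 57.4%. Of these, 5983 had weak peaks but no optimal IDR peak, called only weak peaks below, and 5952 also had an optimal one. A further 2593 genes had an optimal peak and no weak one, and 6279 had neither. Pooled peaks that overlapped the conservative IDR set alone were not counted in this split. A gene without an optimal peak may therefore still hold one of those. More than 1 weak peak was found at 6287 genes. Genes whose 5′ end had a CpG ratio over 0.6 carried a weak peak in 76.6% of cases, and the others in 37.9%. The number of annotated start sites, which widens the area searched, moved with the count: 30.3% of genes with 1 start site had a weak peak and 80.5% of those with 5 or more. Start site number and CpG content were not separated here, so the shares of the gene lists below are set beside the share over all coding genes and nothing more.

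**Figure D5:**
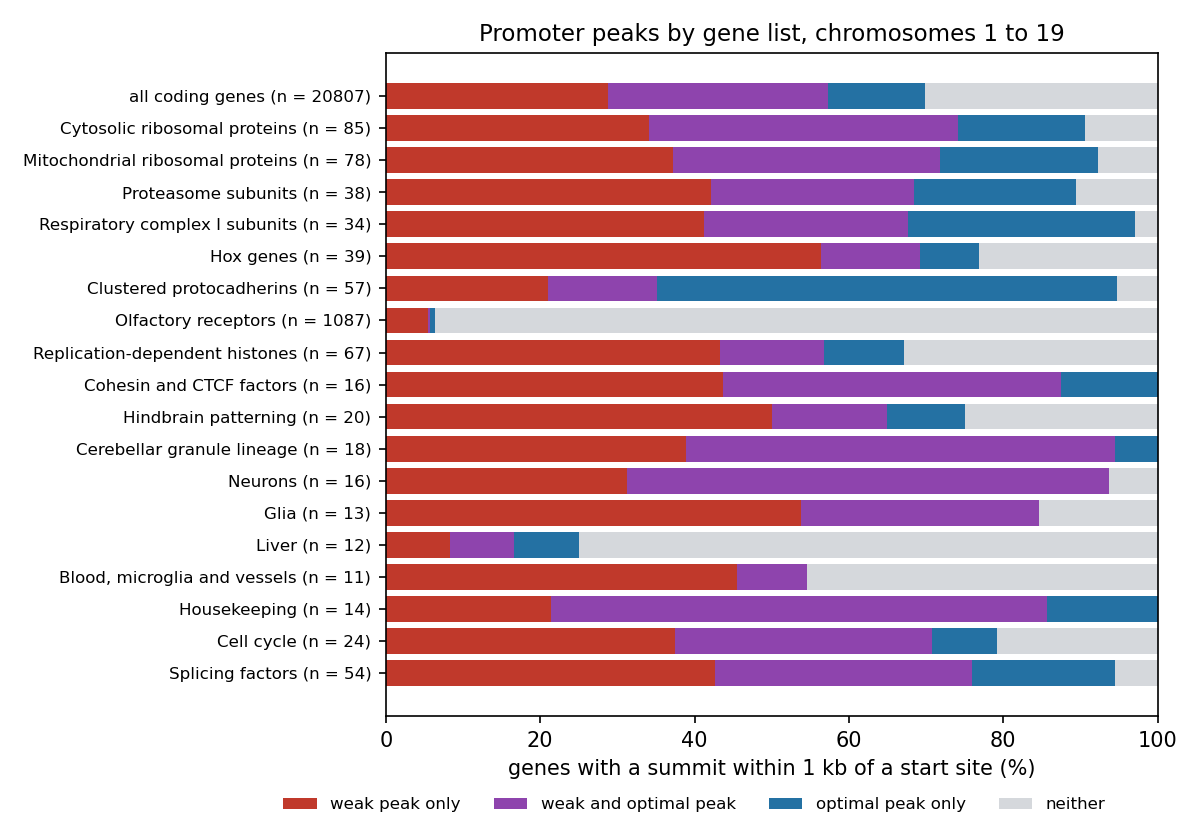
Percent of genes (x axis) with only weak peaks, weak and optimal peaks, only optimal peaks or neither within 1 kb of a start site, for all coding genes and 18 gene lists (y axis, with the number of genes). Only weak means without an optimal peak, and peaks that overlapped the conservative IDR set alone were not counted. Olfactory receptors mostly had neither (93.7%), Hox genes mostly only weak peaks (56.4%), and clustered protocadherins mostly only optimal peaks (59.6%).

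Over all coding genes 57.4% had a weak peak, 28.8% had only weak peaks and 41.1% had an optimal peak. In 5 lists of genes of basic cell machinery the share with a weak peak ran from 67.6% to 75.9%, below the 76.6% of all genes with a CpG-rich 5′ end. The cytosolic ribosomal protein list had them at 63 of 85 genes and the mitochondrial ribosomal list at 56 of 78, and 26 of 38 proteasome, 23 of 34 respiratory complex I and 41 of 54 splicing genes had them. Rps16, of the small ribosomal subunit, had no optimal peak but a weak one 57 bp inside the gene, with a signal of 21.9 and ranks of 81302 and 61785 in the libraries. Mrpl57, of the mitochondrial ribosome, had a weak peak with a signal of 29.4 at ranks 68695 and 47868. Psmd2, of the regulatory particle of the proteasome, had a peak 13 bp from its start that was in replicate 1 at rank 49623 and not in replicate 2. Ndufa4, in the complex I list by its name, had one 4 bp from its start at ranks 60434 and 81043. Snrpc, of the U1 splicing particle, ranked 45359 in replicate 1 and 101995 in replicate 2. Prpf4, of the U4/U6 particle, was the only one of the genes named from these lists with a core match (1 mismatch), and that match lay in masked letters.

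Other genes named by the same rule in these lists were Rpl13, Rps27, Mrps21, Mrps34, Psma3, Psmb1, Ndufs3, Ndufs6 and Snrpd2. Their signals ran from 19.1 at Ndufs6 to 27.4 at Mrps21. All of them were in both library lists except Snrpd2, whose peak was in replicate 2 at rank 50608 and not in replicate 1. The summits of Mrps34 and Snrpd2 were closer to a start of the neighbouring genes Eme2 and Qpctl, at 440 and 683 bp upstream of their own. One peak can thus stand for 2 genes.

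Of the 39 Hox genes, the transcription factors that set position along the body axis, 27 had a weak peak (69.2%) and 22 had only weak ones (56.4%), while 8 had an optimal peak (20.5%), beside 57.4%, 28.8% and 41.1% of all coding genes. Hoxb3, expressed in the developing hindbrain, had a weak peak with a signal of 14.99 at rank 67509 in replicate 1 and none in replicate 2. Hoxb1, which marks a single hindbrain segment in the embryo, had one with a signal of 13.96 at ranks 99482 and 120899. Hoxd1 had one 51 bp from its start with a core match of 2 mismatches, at ranks 200044 and 91991. The clustered protocadherins, cell recognition proteins of neurons whose promoters are known CTCF sites, had an optimal peak at 42 of 57 genes (73.7%) and a weak one at 20 (35.1%). Their strongest gene with only weak peaks was Pcdha2, 35 bp upstream of its start, with a signal of 30.6 at ranks 64660 and 44853. Pcdhb12 had a peak with a signal of 22.5 and a core match of 2 mismatches. Pcdha11 had one with a signal of 24.6, at 1 of the 2 annotated genes of that name.

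Olfactory receptors, silent in most tissues, had weak peaks at 62 of 1087 genes (5.70%) and optimal peaks at 10 (0.920%). Olfr30 had the strongest among those without an optimal peak, with a signal of 18.3 at ranks 73441 and 104352. Olfr958 was in both lists, and Olfr1344, whose peak held a core match with 1 mismatch, was in replicate 1 only. Replication-dependent histone genes had weak peaks at 38 of 67 (56.7%, beside 57.4% of all coding genes) and optimal ones at 16 (23.9%, beside 41.1%). Hist1h4b had one with a signal of 22.7 at ranks 91902 and 52575, Hist2h2bb one with a signal of 17.6, and Hist1h3a one of 15.03 that lay closer to a start of Hist1h4a. Histone genes are near-identical copies, and whether reads were split or lost among them was not tested.

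The lists of brain genes were small, and their counts stand beside the 57.4% of all coding genes with a weak peak. The cerebellar granule lineage list had them at 17 of 18 genes, with Ccnd1 the exception, and the neuron list at 15 of 16, with Snap25 the exception. The glia list had them at 11 of 13 genes, the exceptions being S100b and Sox10, and the hindbrain patterning list at 13 of 20 (65.0%, 95% Wilson interval 43.3 to 81.9). The median number of start sites was 4.5 in the granule lineage list and 3.5 in the neuron list. It was 3 in the glia and patterning lists and over all coding genes. Zic1 and Zic4, a neighbouring pair of zinc finger genes of the cerebellum, had signals of 13.4 and 13.7, and both stood far higher in replicate 1 (ranks 93907 and 85568) than in replicate 2 (274902 and 224742). Nfib, a nuclear factor gene of the same lineage, ranked evenly at 87183 and 74811. Elavl3, an RNA-binding protein of neurons, had a signal of 22.6 and ranks of 86404 and 52614. Slc32a1, the vesicular transporter of GABA and glycine, had a peak 11 bp from its start at ranks 67690 and 91850. Stmn2, a tubulin regulator, had one in replicate 2 only.

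Among glial genes without an optimal peak, Aqp4, the water channel of astrocytes, had the strongest weak peak with a signal of 24.6 and a core match of 2 mismatches, at ranks 56679 and 97043. Fabp7 and Cspg4 had signals of 14.7 and 13.9 and were in both lists, Cspg4 at rank 263888 in replicate 1 and 62102 in replicate 2. Of the patterning genes, Pbx3 had a signal of 15.1, Meis1 of 14.2 and Pax5 of 14.1, all in both lists and none with a core match. CTCF peaks do not measure expression, so these lists do not check the tissue.

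The liver list, of a tissue that was not sampled, had weak peaks at 2 of 12 genes (16.7%), Apob and Hnf4a, beside 57.4% of all coding genes. Hnf4a, a liver nuclear receptor, was not in the list of replicate 1 and stood at rank 53719 in replicate 2. The list of blood, microglia and vessel genes had weak peaks at 6 of 11 (54.5%), near that share, among them Aif1, Kdr and Pecam1. Pecam1 held a core match with 1 mismatch at ranks 142292 and 149431, while Aif1 and Kdr had signals of 12.8 and 12.3. Housekeeping genes had weak peaks at 12 of 14 (85.7%), with Rplp0 and Sdha the exceptions. Their median number of start sites was 6.5, and 80.5% of all genes with 5 or more had a weak peak. Tbp shared the promoter of Psmb1 and had a peak 975 bp upstream of its own start. Gusb had a peak in replicate 2 only.

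Of the list of cohesin and CTCF factors, 14 of 16 had a weak peak (87.5%, beside 57.4% of all coding genes), with Esco1 and Maz the exceptions. Their median number of start sites was 5, and 80.5% of all genes with 5 or more had a weak peak. Nipbl, which loads cohesin, had no optimal peak but a weak one 162 bp upstream of its start, with a signal of 26.2 at ranks 54830 and 87380. Zfp143, a promoter-binding zinc finger protein, had one with a signal of 19.2, and Cdca5, also called sororin, one of 16.9 that was 31 bp upstream of its start and 4 bp from a start of Zfpl1. Cell cycle genes, also with a median of 5 start sites, had weak peaks at 17 of 24 (70.8%). Cdc20, an activator of the anaphase-promoting complex, had the strongest of those without an optimal peak, with a signal of 29.2, at rank 99439 in replicate 1 and 39000 in replicate 2. Aurkb, a mitotic kinase, had one with a signal of 24.3 in both lists. Mcm4, of the replicative helicase, had one with a signal of 21.8 in replicate 1 only, closer to a start of Prkdc.

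The 974 weak promoter peaks in neither library list had a median signal of 7.63, against 13.1 for those in both. The strongest were at Mtss1l, a gene for a membrane-bending protein, with a signal of 20.2, at Nif3l1 with 13.4 and at Lrrc58 with 12.2. At the limit of the rule, the peaks of Arhgap35, Atp8a1 and Dip2b lay 1000 bp from a start and were counted, with signals of 10.1, 16.4 and 7.23. Those of Ankzf1, Appl2 and Cdk12 lay 1001 bp away and were not, with signals of 12.1, 11.7 and 13.7. Arhgap35 and Atp8a1 were in both library lists and the others in 1.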

How the data were processed

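CTCF ChIP-seq peaks of 2 libraries were read as deposited, in narrowPeak lists on mm10: 1 list per library, a list from the pooled alignments of both, and the optimal and conservative IDR sets, per the file headers and the deposited descriptions. Signal values are the authors' deposited score and served only to rank and describe peaks. The authors deposited q values as −log10, and the deposited offset gave the summit. The aligner, peak caller, IDR version and threshold remain not given in the sources used here. Control libraries were not used here. The lists hold no read counts, so the depth is unknown.

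Start sites were those of any transcript of a protein-coding gene in GENCODE vM21, and sequence came from the RefSeq file of GRCm38, whose lower-case letters were taken as masked repeats. Overlap needed 1 bp. Analysis used Python 3.11.15 with NumPy 2.4.6, pandas 2.3.3, SciPy 1.17.1, statsmodels 0.14.6 and matplotlib 3.10.9. The overlap, nearest start site and motif search steps were tested on simulated data, and the McNemar step was not. Shares have 95% Wilson intervals and differences of shares 95% Newcombe intervals. The weak promoter peaks, the 18 gene lists and the tests were chosen with earlier results of these data known. Named were the 8 strongest weak promoter peaks, the 6 strongest in both lists with at most 1 mismatch, the 3 strongest in neither list, up to 3 genes per list with the strongest weak peak and no optimal one, and the 3 peaks on each side of the 1 kb limit. A few genes that meet this naming rule are left unreported. Alternatives changed the promoter width, the start sites, the rejection rule, the overlap, the libraries used and the motif search.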

Additional observations from a re-analysis of the deposited data

How the results depend on the processing

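No paired analysis was possible because the series has 1 group. The excess of core matches at the summit over the mean of both flanks, 6.82 points, kept its direction and its side of the threshold under all 13 alternatives (0.997 to 16.2 points). One of these set the reversed consensus, no full control for base composition, in place of the flanks (8.55 points). The number of weak promoter peaks was 12404 with gene 5′ ends only, 13669 among rejected peaks at or above their median signal, 36453 within 2.5 kb and 13830 within 500 bp, and stayed within 1.5 times in the other 3.

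The share in both lists was 23.5% with the 150000 strongest peaks of each library, 21.2% with summits within 50 bp and 38.1% with 50% reciprocal overlap. It was 51.6% with coding transcripts only, 53.9% with 5′ ends, 47.8% without an IDR summit within 1 kb, 51.6% with the optimal set alone for rejection and 47.0% for peaks of replicate 1 sought in replicate 2. It was 66.3% at or above the median signal, 44.5% within 2.5 kb and 52.1% within 500 bp. In 1 library alone it was 66.8% to 77.4%.

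The difference from distal rejected peaks, in the same order, was 10.6, 3.57, 9.06, 17.8, 20.045, 13.99 and 16.2 points, and then 6.58 (at or above the median), 10.6 (2.5 kb) and 18.2 (500 bp). In 1 library alone it was 8.06 to 10.2 points. It stayed above 0 in all 12.

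The share with a core match was 1.46% with 1 mismatch, 36.8% with 3, 16.0% in windows of 100 bp on each side and 5.34% in windows of 25 bp. It was 9.13% with coding transcripts, 8.74% with 5′ ends, 11.1% without a near IDR summit, 10.9% with the optimal set alone, 12.4% at or above the median signal, 12.2% within 2.5 kb and 9.73% within 500 bp. The share of genes with a weak peak was 52.3%, 46.2%, 46.0%, 59.1%, 45.2%, 69.5% and 45.5% in that order. The lists give no depth, so a peak absent from a list was not called there, and it is not shown to be absent from the library.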
